A study of Mus musculus with 11 samples.

Results

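The cytosolic ribosomal protein genes encode the proteins of the large (Rpl) and small (Rps) subunits of the ribosome. They were taken by symbol, as every gene named Rpl or Rps followed by a digit, together with Rpsa, Rplp0, Rplp1 and Rplp2, leaving out pseudogenes and the S6 kinases. This gave 86 of the 32285 genes in the single-cell count tables. They were followed in mouse brain after middle cerebral artery occlusion and reperfusion (MCAO/R, a model of ischaemic stroke in which blood flow is blocked and then restored) or sham surgery, in wild-type (WT) mice and in mice without Lrg1, a secreted glycoprotein of blood vessels and leukocytes. There were 11 libraries of 1 mouse each, namely 3 sham + WT, 3 sham + Lrg1-/-, 2 MCAO/R + WT and 3 MCAO/R + Lrg1-/-.

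The WT mice were male C57BL/6 animals of 8 to 10 weeks. The Lrg1-/- mice were 3 months old, carried a conventional knockout in all cells, and had been backcrossed to C57BL/6N for 4 generations. Genotype therefore cannot be told apart from age, from substrain and from whatever else separated the source colonies, and the sex of the Lrg1-/- mice is not given in the sources used here. The occlusion lasted 1 hour in both MCAO/R groups. The right brain was dissociated, red blood cells were lysed, and libraries were made with 10x Genomics 3′ v3 chemistry, in which each captured RNA molecule is counted once as a unique molecular identifier (UMI).

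A ribosome holds 1 copy of most of its proteins, so cells that grow or secrete make these proteins together and in large amounts. In mammals their mRNAs begin with a run of pyrimidines, the 5′ terminal oligopyrimidine (TOP) motif, through which mTOR signalling controls their translation, while the level of the mRNAs themselves follows transcription and stability. In brain, lymphocytes and other small immune cells are known for a high share of such mRNAs, and neurons and glia for a lower one.

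Total counts ran from 37159497 to 171813031 UMIs per library. Of 155804 barcodes, 125593 cells were kept after removal of 6844 doublets, 20 cell types were named from their markers, and 24509 cells stayed unnamed. The unnamed cells were 35.6% of the MCAO/R + Lrg1-/- and 3.91% of the MCAO/R + WT cells. After sham surgery they were 14.4% of the Lrg1-/- and 4.79% of the WT cells. Choroid plexus epithelial cells were 29.7% of the sham + Lrg1-/- and 1.78% of the sham + WT cells. Microglial cells were 11.95% and 38.99% of the same groups. Genotype comparisons by type rest on named cells, except where an unnamed cluster is stated. No pair of libraries shared more than 1.15% of barcodes. Over all kept cells Lrg1 had 0 UMIs in 5 of the 6 Lrg1-/- libraries and 1 UMI in MCAO/R + Lrg1-/- replicate 5. In WT endothelial cells Lrg1 stood at 6.90, 25.2 and 7.17 CPM after sham surgery and at 440 and 541 CPM after MCAO/R. CPM are UMI counts scaled by the total of each cell type and library, and for all genes but Lrg1 also by edgeR's TMM factor. The Lrg1-/- libraries also carried RNA that the cell types at hand should lack. In endothelial cells haemoglobin genes took 0.097 to 0.14% of UMIs in the sham + WT mice and 3.03 to 7.78% in the sham + Lrg1-/- mice, and in microglial cells 0.00175 to 0.00223% and 1.21 to 3.88%. All 4 haemoglobin genes were higher in every Lrg1-/- than in every WT library in each of the 10 cell types tested and after both surgeries. The same held for all 4 choroid plexus genes followed, Ttr (transthyretin) among them, in the 9 types other than the choroid plexus epithelial cells themselves. A list of 7 genes induced by tissue dissociation took 2.49 to 2.68% of microglial UMIs in the sham + WT mice and 1.21 to 1.45% in the sham + Lrg1-/- mice. Its summed level after sham surgery was lower in all Lrg1-/- than in all WT mice in 6 of the 10 types, endothelial and microglial cells among them, overlapped in 3, and was higher in oligodendrocytes (0.333 to 0.52% against 0.174 to 0.218%). After MCAO/R it was lower in 7 types and overlapped in 3. The part of these differences in the results that follow was not tested, apart from the values given without haemoglobin-rich cells.

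The sequence around the annotated start was read for the pyrimidine run. Of the 86 genes, 66 had an entry in the promoter table of RefSeq (build GRCm38.p6). A C at the annotated start followed by at least 4 pyrimidines was present in 14 of these 66 (21.2%) and in 813 of 27025 mouse genes (3.01%). With the run allowed anywhere within 25 bases of the annotated start and lengthened to at least 7 pyrimidines after the C, the shares were 50% and 17.7%. The 8 sequences printed here run from 30 bases before the annotated start to 25 bases from it, 5′ to 3′ on the strand of the gene, and capitals mark the C and pyrimidine run at the start where there is one. Rps6, Rpl38, Rplp2, Rpl35 and Rps27 are shown as genes with the run, and Rps27l, Rpl22 and Rpl22l1 because they are, with Rps27, the paralogue pairs followed in the results, and none of these had a run at the annotated start used.
Rps6 (chr4:86857343-86857397, minus strand): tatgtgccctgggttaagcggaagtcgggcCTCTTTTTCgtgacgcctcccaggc
Rpl38 (chr11:114668550-114668604, plus strand): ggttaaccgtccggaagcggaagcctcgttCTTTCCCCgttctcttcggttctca
Rplp2 (chr7:141447621-141447675, plus strand): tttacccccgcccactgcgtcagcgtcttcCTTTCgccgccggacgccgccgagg
Rpl35 (chr2:39005107-39005161, minus strand): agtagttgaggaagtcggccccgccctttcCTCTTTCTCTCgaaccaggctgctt
Rps27 (chr3:90213624-90213678, minus strand): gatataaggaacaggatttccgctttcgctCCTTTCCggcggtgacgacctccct
Rps27l (chr9:66946056-66946110, plus strand): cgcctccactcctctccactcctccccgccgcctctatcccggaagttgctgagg
Rpl22 (chr4:152325696-152325750, plus strand): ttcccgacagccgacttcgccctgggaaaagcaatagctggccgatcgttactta
Rpl22l1 (chr3:28805478-28805532, plus strand): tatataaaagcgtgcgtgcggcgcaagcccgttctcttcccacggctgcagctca

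Rps27l and Rpl22 have 2 promoter entries each, of which the first was used. In the whole window of 250 bases before to 50 bases after the start, searched on both strands, CTTCCGG (the core of sites bound by ETS-family factors) was found in 39.4% of the ribosomal protein genes and in 9.93% of all genes. The 8 letters GCCATCTT (a YY1 core) were found in 9.09% and 3.19%, CTTTCC in 54.5% and 29.3%, and TATAAA in 10.6% and 15.7%. These letters can overlap one another and the pyrimidine run, and a match is a description of the sequence only.

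All but a few of the 86 genes were abundant. Rplp1, 1 of the 3 proteins of the ribosomal stalk, had 2060864 UMIs over all libraries, which was 2.82% of the family's UMIs and 0.198% of all UMIs. At the other end stood the paralogues with restricted tissue use, Rpl39l with 1100 UMIs, Rpl3l with 538 and Rpl10l with 1, the first and last known from testis and Rpl3l from heart and skeletal muscle. Rps27rt, with 12830 UMIs, is a near-identical copy of Rps27, so its counts depend on how shared reads were assigned. Rps19bp1 bears the family's name but encodes a binding protein of Rps19, and it had 28276 UMIs.

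**Figure D1:**
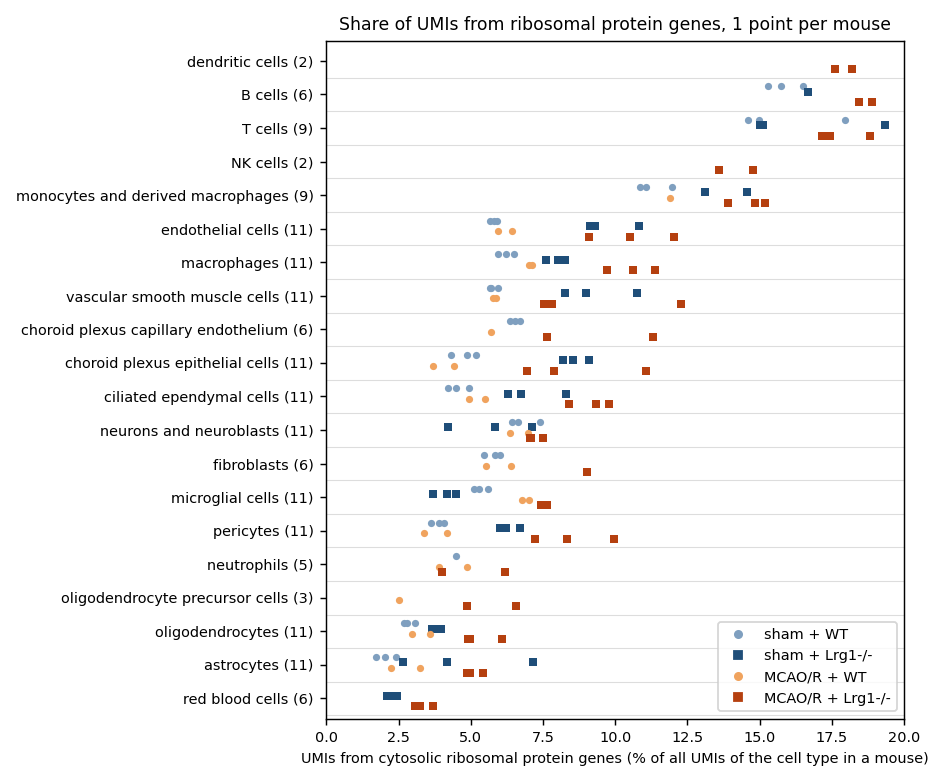
Share of all UMIs that came from the 86 cytosolic ribosomal protein genes (per cent, x axis) in each named cell type (y axis), with 1 point per mouse coloured by group. T cells, B cells, NK cells and dendritic cells lie to the right of the resident brain cells, monocytes (10.8 to 15.2%) overlap the highest endothelial (12.04%) and smooth muscle (12.3%) points, and in endothelial cells all Lrg1-/- points lie to the right of all WT points.

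Cell types differed widely in the share of their UMIs given to these genes. Averaged over mice, the share was highest in dendritic cells (17.9%, n = 2), B cells (16.9%, n = 6), T cells (16.7%, n = 9), NK cells (14.2%, n = 2) and monocytes and monocyte-derived macrophages (13.04%, n = 9). The dendritic and NK cell values come from MCAO/R + Lrg1-/- mice alone. In the 2 mice with both types B cells stood above dendritic cells (18.9 and 18.4% against 17.6 and 18.2%), and in 2 of 2 mice monocytes stood above NK cells, so these places in the order rest on which mice entered each mean. In the 6 mice with both B and T cells, the mean of B minus T cells was -0.224 points, with B cells higher in 4 of 6 mice, so the order of that pair also turns on which mice entered. The share was 8.24% in endothelial cells, 6.60% in neurons and neuroblasts, 5.89% in microglial cells, 3.88% in oligodendrocytes and 3.72% in astrocytes (n = 11 each). Red blood cells stood lowest at 2.81% (n = 6), with values from Lrg1-/- mice alone, whereas the astrocyte mean pools both genotypes and was 2.32% in the 5 WT mice and 4.88% in the 6 Lrg1-/- mice. The red blood cell share with haemoglobin and mitochondrial genes left out of the totals was 11.7%. Neighbours in this order were compared within mice by an exact two-sided sign-flip test with adjustment over 13 pairs, and the other 6 of the 19 steps, with fewer than 6 mice, were not tested. The step from monocytes down to endothelial cells was 4.66 percentage points and had the same sign in 9 of 9 mice (exact sign-flip test, p = 0.00391, adjusted p = 0.0508), and every other tested step had an adjusted p of 0.203 or more. No tested step passed at these numbers of mice. Of the steps not tested, that from T cells to NK cells was 3.81 points, with the same sign in 2 of 2 mice.

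**Figure D2:**
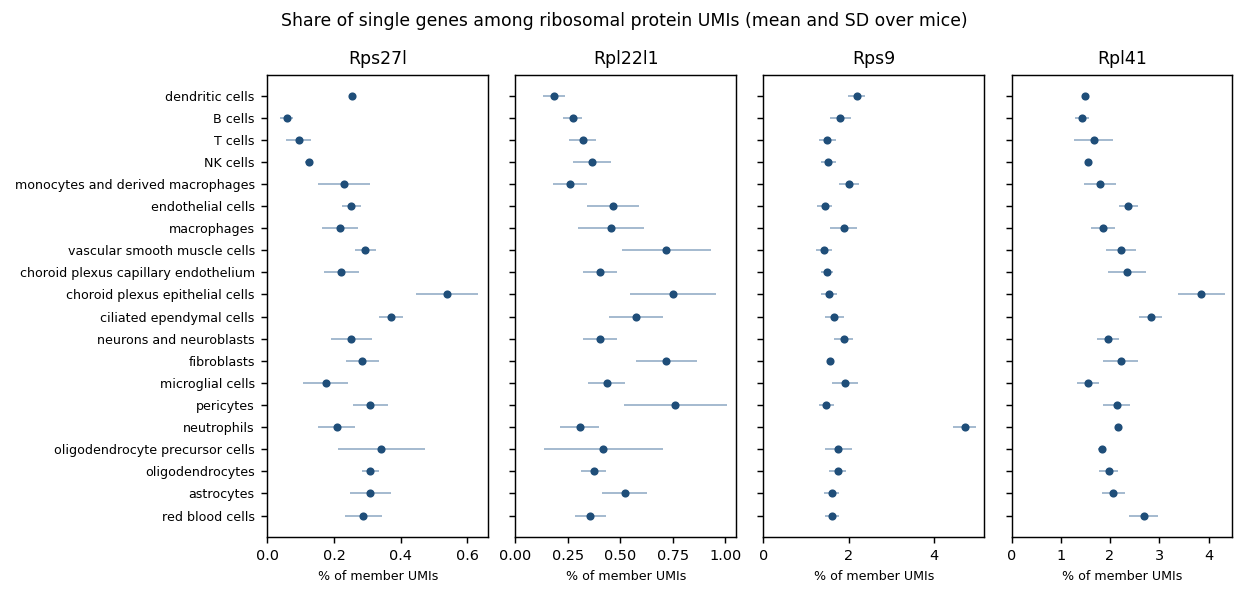
Percentage of the family's UMIs (x axis of each panel) taken by Rps27l, Rpl22l1, Rps9 and Rpl41 in each cell type (y axis), as the mean (points) and SD over mice (bars). Rps9 stands at 4.71% in neutrophils and between 1.43 and 2.18% in every other type.

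Within the family, most genes kept much the same proportion from type to type. Over the 80 genes abundant enough to follow, the median SD of the log2 proportion between types was 0.20, and among those that varied most were Rps27l, Rpl22l1, Rps9 and Rpl41, with 0.72 for the first. Rps27l, a paralogue of Rps27 that is a known target of p53, made up 0.539% ± 0.0935 of the family's UMIs in choroid plexus epithelial cells and 0.0572% ± 0.0185 in B cells (SD over mice). Rpl22l1, the paralogue of Rpl22, took 0.762% ± 0.246 in pericytes and 0.751% in choroid plexus epithelial cells, against 0.260% in monocytes and 0.183% in dendritic cells. Both were thus lowest in a leukocyte type, with other types between and no clean division.

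Rps9, a protein of the small subunit, took 4.71% ± 0.273 (SD, n = 5 mice) of the family's UMIs in neutrophils, with 4.34% in the lowest mouse. In every other type its mean was between 1.43 and 2.18%. Rpl41, the shortest ribosomal protein, ran from 1.43% in B cells to 3.85% ± 0.476 in choroid plexus epithelial cells. The large-subunit genes together took between 53.7% (B cells) and 58.6% (ependymal cells) of the family's UMIs.

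The question put to the 4 groups was how loss of Lrg1 and the operation each bore on these genes in each cell type. In endothelial cells, the cells that line brain vessels, the family's share of UMIs was 5.92, 5.65 and 5.79% in the sham + WT mice and 9.12, 9.29 and 10.8% in the sham + Lrg1-/- mice. After MCAO/R it was 6.41 and 5.95% in the WT mice and 12.04, 10.5 and 9.11% in the Lrg1-/- mice. Every Lrg1-/- mouse was above every WT mouse, after either operation, and the single highest value was after MCAO/R. The share was 4.16 percentage points higher in Lrg1-/- than in WT mice, averaged over the operations (exact two-sided permutation test within operations, p = 0.005, the smallest this design can give, adjusted p = 0.00714 over 10 types).

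The same direction held in 7 other types. Averaged over the operations, the Lrg1-/- share was higher by 4.19 points in choroid plexus epithelial cells, 3.59 in pericytes, 3.25 in ependymal cells, 2.61 in macrophages, 1.53 in oligodendrocytes and 2.49 in astrocytes, each with an adjusted p of 0.00714 by the exact permutation test. The difference in vascular smooth muscle cells was 3.47 points (exact permutation test, adjusted p = 0.0187). The WT and Lrg1-/- values did not overlap in pericytes, where the sham mice had 4.07, 3.61 and 3.91% against 6.71, 6.01 and 6.22%, and the MCAO/R mice 4.17 and 3.38% against 9.94, 8.34 and 7.23%. In several of these types the genotypes were spread unequally over clusters that differ in share. In pericytes 776 of 1034 MCAO/R + WT cells were in a cluster with a median share of 3.27%, and 130 of 297 MCAO/R + Lrg1-/- cells in one with 5.91%. In astrocytes 508 of 891 MCAO/R + WT cells were in a cluster at 1.15% and 199 of 382 MCAO/R + Lrg1-/- cells in one at 4.68%. In oligodendrocytes 2236 of 3163 MCAO/R + WT cells were in a cluster at 3.37% and 2851 of 4728 MCAO/R + Lrg1-/- cells in one at 4.37%. In vascular smooth muscle cells a cluster at 10.9% held 698 of 1290 sham + Lrg1-/- and 131 of 836 sham + WT cells. Within single clusters of the 7 types, counting those with at least 2 mice of both genotypes, all Lrg1-/- mice were above all WT mice in 13 of 15 after sham surgery, by 0.262 to 2.88 points over the 15, and in 12 of 13 after MCAO/R, by 0.605 to 3.80 points over the 13. In pericytes 1 such cluster could be compared, after MCAO/R (8.26 against 6.08%). In choroid plexus epithelial cells none could be compared after MCAO/R. These within-cluster values are a description. Microglial cells and neurons had differences of -0.275 and -0.272 points, which did not pass the exact permutation test (p = 0.455 and p = 0.665). In neurons the difference was -1.08 points after sham surgery, where the genotypes overlapped. After MCAO/R it was 0.536 points, with all Lrg1-/- mice above all WT mice. In bulk sums of this kind, more RNA of these genes per cell and less RNA of other genes give the same rise in share. With cells above 1% haemoglobin left out, an alternative chosen after seeing the data, the endothelial difference was 3.65 points, and with haemoglobin and mitochondrial genes left out of the totals it was 4.73 points.

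**Figure D3:**
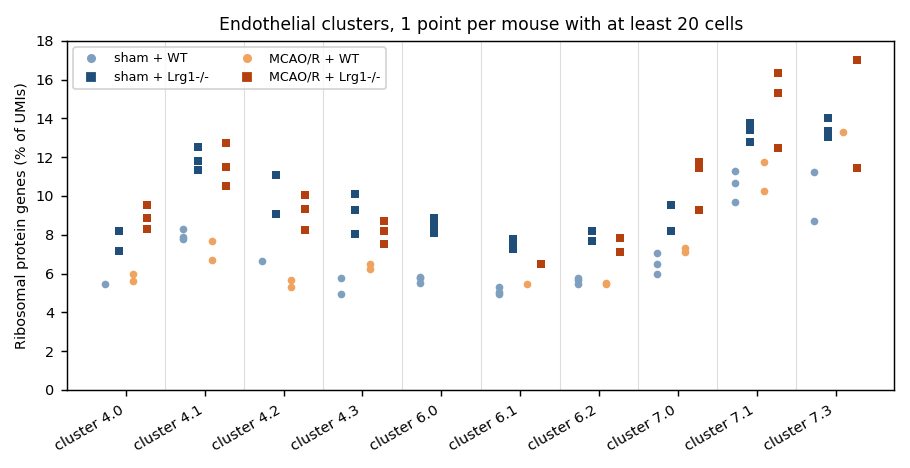
Ribosomal protein share of UMIs (per cent, y axis) in each endothelial cluster (x axis), with 1 point per mouse and cluster coloured by group. Within each cluster with at least 2 mice of both genotypes after an operation, all Lrg1-/- points lie above all WT points.

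The genotypes were spread unequally over the endothelial clusters too. The cluster group that holds the 2 clusters of highest share (medians of 12.2 and 12.04%) took 1556 of 3749 sham + Lrg1-/- against 1441 of 7779 sham + WT cells, and 2140 of 5960 MCAO/R + Lrg1-/- against 481 of 5066 MCAO/R + WT cells. Over all endothelial cells the sham difference was 3.96 points and that after MCAO/R 4.37 points. The clusters differed in level as well. The cluster marked by Ackr1, Lcn2 and Slc38a5, genes of venous endothelium, was among those with the highest share, 10.5% in the sham + WT mice (9.67 to 11.3%) and 13.3% in the sham + Lrg1-/- mice (12.8 to 13.8%). After MCAO/R the same cluster had 11.0% in the WT and 14.7% in the Lrg1-/- mice. Its median counts per cell were 1509, 1398.5 and 1465 UMIs in the sham + WT mice, near the minimum of 1000. In the sham + Lrg1-/- mice they were 2484, 3705 and 9111 UMIs. After MCAO/R they were 1475.5 and 1479 UMIs in the WT and 10136.5, 2248 and 1938 in the Lrg1-/- mice. The part of this depth in the share was not tested. All sham + Lrg1-/- mice were above all sham + WT mice in 8 of 8 clusters, by 2.13 to 3.91 points, each below the sham difference over all endothelial cells. After MCAO/R all Lrg1-/- mice were above all WT mice in 7 of 7 clusters, by 1.79 to 4.38 points. The largest of these was about equal to the difference over all endothelial cells. Only clusters with at least 2 mice in both groups were counted. In the cluster led by the arterial genes Gkn3 and Mgp only 1 MCAO/R + WT mouse had enough cells, and its 13.3% lay between the 11.4% and 17.0% of the MCAO/R + Lrg1-/- mice. Ribosomal protein, mitochondrial and haemoglobin genes were left out of the genes used for clustering. These within-cluster values are a description.

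**Figure D4:**
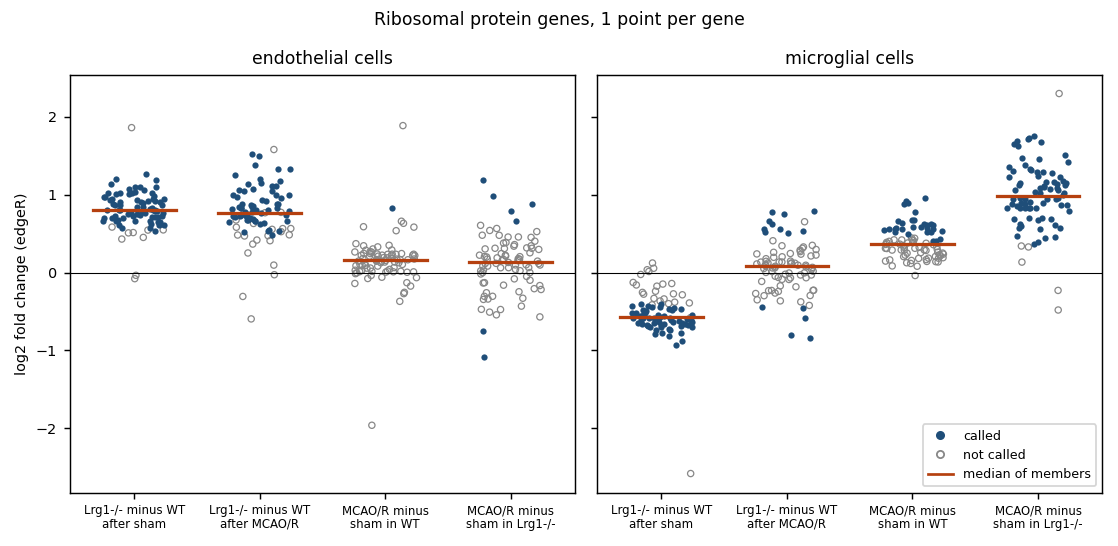
Log2 fold change (y axis) of each ribosomal protein gene in endothelial and microglial cells for the 4 comparisons of groups (x axis), 1 point per gene, with called genes filled and a line at the median. In endothelial cells nearly all points lie above 0 for Lrg1-/- minus WT after both operations, and in microglial cells most lie below 0 for that comparison after sham surgery and above 0 for MCAO/R minus sham in Lrg1-/- mice.

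For single genes, the UMIs of each mouse in each type were added up and compared by edgeR's quasi-likelihood test. A gene counted as called where its p, adjusted by Benjamini-Hochberg over all genes, was under 0.05 and its change exceeded 0.25 on the natural log scale (0.361 on the log2 scale). Backgrounds are the shares of all genes that this edgeR test called. None is given for DESeq2, for unadjusted p or for fits with changed libraries, cells or settings. After sham surgery, 75 of the 85 ribosomal protein genes tested in endothelial cells rose in Lrg1-/- mice, 44 of 51 of the large and 31 of 34 of the small subunit, and none fell. The background in that comparison was 10.8% of all genes called higher and 11.3% called lower. Their median log2 fold change was 0.80, against 0.03 for all genes. After MCAO/R, 63 of 85 rose (36 of the large, 27 of the small subunit) and none fell, with backgrounds of 15.4% higher and 12.4% lower, a median of 0.77 and 0.07 for all genes. The sham count was 33 without sham + WT replicate 3, 39 without sham + WT replicate 2 and 44 without sham + Lrg1-/- replicate 5. The MCAO/R count was 30 without MCAO/R + WT replicate 1 and 11 without MCAO/R + WT replicate 2, each of which leaves 1 mouse in that group, taken to vary as the other groups do. With cells above 1% haemoglobin left out the counts were 73 and 58.

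Among the stalk proteins, which recruit translation factors to the ribosome, Rplp1 stood at 1210, 1209 and 1244 CPM in endothelial cells of the sham + WT mice and at 2262, 2239 and 2732 CPM in the sham + Lrg1-/- mice. After MCAO/R it stood at 1391 and 1122 CPM in the WT and at 3679, 3102 and 2675 CPM in the Lrg1-/- mice. The genotypes did not overlap after either operation (log2 fold change 0.98, SE 0.17, edgeR adjusted p = 0.0047 after sham surgery, and 1.33, SE 0.19, adjusted p = 0.00184 after MCAO/R). Rplp2, its partner, had 461, 410 and 463 CPM against 985, 1024 and 1193 CPM after sham surgery, a log2 fold change of 1.26 (edgeR adjusted p = 0.00362), and rose by 1.12 after MCAO/R. Rplp0, the scaffold of the stalk, had 1040 and 727 CPM in the MCAO/R + WT mice and 1711, 1635 and 1381 CPM in the MCAO/R + Lrg1-/- mice, a log2 fold change of 0.83 (edgeR adjusted p = 0.0217), whereas the sham difference of 0.58 was not called (adjusted p = 0.0565).

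Rpl12, which anchors the stalk to the large subunit, had the largest called rise of the family in endothelial cells after MCAO/R. It stood at 461 and 346 CPM in the MCAO/R + WT mice and at 1163, 1314 and 1006 CPM in the MCAO/R + Lrg1-/- mice, with a wide gap between the groups (log2 fold change 1.53, SE 0.18, edgeR adjusted p = 0.00101). After sham surgery it was 290.0, 335 and 338 CPM against 579, 548 and 637 CPM, a log2 fold change of 0.87 (edgeR adjusted p = 0.00611). Rpl23a, at the mouth of the exit tunnel, had 271 and 229 CPM against 725, 666 and 552 CPM after MCAO/R (log2 fold change 1.38, edgeR adjusted p = 0.00147). Rpl5, which carries 5S ribosomal RNA into the ribosome and, when free, binds the p53 regulator Mdm2, had 283, 340.3 and 336 CPM against 764, 724 and 689 CPM after sham surgery. The sham groups again did not overlap, and the log2 fold change of Rpl5 was 1.18 (edgeR adjusted p = 0.00163) after sham surgery and 1.25 (adjusted p = 0.00147) after MCAO/R.

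Of the small-subunit proteins, Rps15, which lies near the decoding centre, had 326, 385 and 398 CPM in the sham + WT and 878, 753 and 739 CPM in the sham + Lrg1-/- mice. After MCAO/R it had 381 and 340.1 CPM against 1101, 1035 and 903 CPM, so that all Lrg1-/- values were above all WT values, by a log2 fold change of 1.10 (edgeR adjusted p = 0.00179) and 1.49 (adjusted p = 0.000831). Rpsa, also known as the laminin receptor precursor, had 792 and 591 CPM against 1997, 1792 and 1439 CPM after MCAO/R (log2 fold change 1.33, edgeR adjusted p = 0.00343). Rps2 had 1480 and 872 CPM against 2844, 3258 and 1754 CPM after MCAO/R (log2 fold change 1.16, edgeR adjusted p = 0.0166), with the WT pair far apart. Rps23, part of the decoding centre, had 768, 752 and 794 CPM against 1605, 1707 and 2021 CPM after sham surgery, a clear gap (log2 fold change 1.20, edgeR adjusted p = 0.00703). After MCAO/R its values were 983 and 832 against 1983, 1231 and 1001 CPM, close at the edges, and it was not called (log2 fold change 0.63, adjusted p = 0.0828).

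Members with other roles rose as well. Rpl11, which joins Rpl5 on 5S ribosomal RNA, rose by a log2 fold change of 0.70 after sham surgery and 0.85 after MCAO/R, Rpl10, which is added late and lets the subunits join, by 1.10 and 0.82, and Rpl13a, which can leave the ribosome to silence inflammatory mRNAs, by 1.07 and 1.05 (edgeR adjusted p between 0.00191 and 0.0204). Rps3, at the mRNA entry, rose by 0.76 and 0.79, Rps19, the gene most often mutated in Diamond-Blackfan anaemia, by 0.67 and 0.67, and Rps27a, made as a fusion to ubiquitin, by 0.73 and 0.73 (edgeR adjusted p between 0.0107 and 0.0292). The called rises ran from 0.53 for Rps4x to 1.26 for Rplp2 after sham surgery and from 0.49 for Rps4x to 1.53 for Rpl12 after MCAO/R. The 10 members not called after sham surgery were Rpl7l1, Rpl39l, Rpl22l1, Rps19bp1, Rpl15, Rpl29, Rps2, Rps26, Rplp0 and Rpl3l. After MCAO/R the 22 not called included Rps27, Rps27rt, Rpl22l1, Rpl7l1, Rps29, Rpl37, Rps28, Rpl38 and Rpl39, with log2 fold changes between -0.31 (Rps27rt) and 0.77 (Rpl39) among these 9.

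Rpl7l1, a relative of Rpl7 with a role in ribosome assembly, had a log2 fold change of -0.08 after sham surgery (edgeR adjusted p = 0.772) and of 0.25 after MCAO/R (adjusted p = 0.348). Rpl22 rose after both operations in endothelial cells, from 464 and 411 CPM to 970, 772 and 601 CPM after MCAO/R (log2 fold change 0.84, edgeR adjusted p = 0.0121). Its paralogue Rpl22l1 had 327 and 289 CPM against 388, 331 and 269 CPM, so the groups overlapped (log2 fold change 0.10, adjusted p = 0.716). Rpl36 lies close to Lrg1 on the same chromosome, so that linked DNA and the knockout cannot be told apart for it, and it rose after sham surgery (log2 fold change 1.03, edgeR adjusted p = 0.0177) and was not called after MCAO/R (0.58, adjusted p = 0.14).

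**Figure D5:**
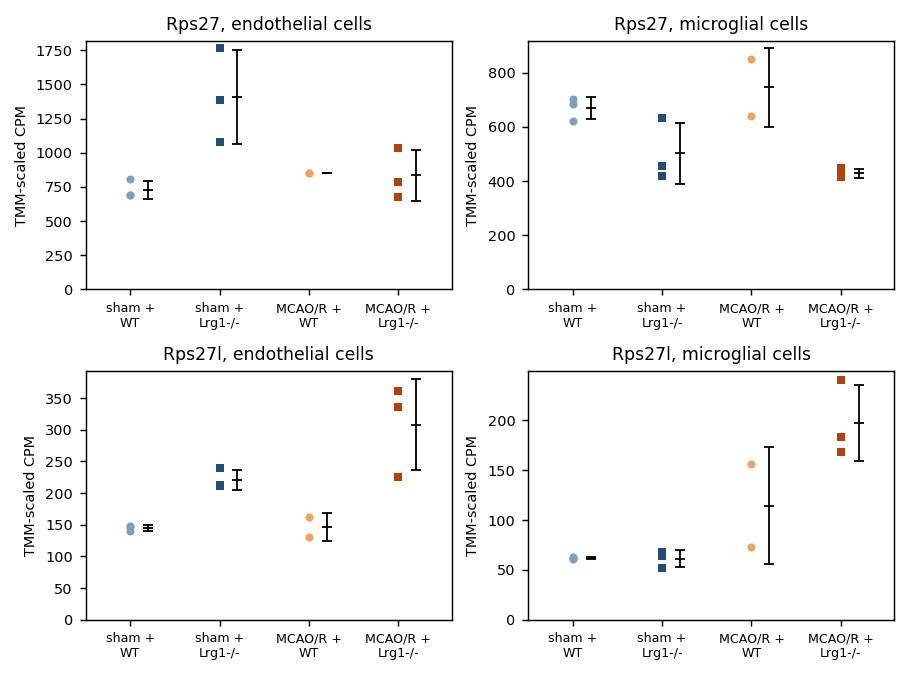
CPM (y axis) of Rps27 and Rps27l in endothelial and microglial cells by group (x axis), 1 point per mouse with the mean and SD. In microglial cells after MCAO/R the Lrg1-/- mice lie below the WT mice for Rps27 and above them for Rps27l.

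The paralogues Rps27 and Rps27l, which can replace one another in the small subunit, went opposite ways in 1 comparison. In endothelial cells Rps27 had 694, 688 and 805 CPM in the sham + WT mice and 1077, 1383 and 1763 CPM in the sham + Lrg1-/- mice (log2 fold change 0.95, edgeR adjusted p = 0.0112). After MCAO/R it had 849 and 851 CPM against 1038, 789 and 676 CPM, overlapping groups with a log2 fold change of -0.03 (adjusted p = 0.937). Rps27l had 162 and 130.3 CPM against 362, 336 and 226 CPM after MCAO/R, with no overlap and a log2 fold change of 1.07 (edgeR adjusted p = 0.00432). In microglial cells after MCAO/R, Rps27 had 642 and 850.3 CPM in the WT mice and 417, 448 and 422 CPM in the Lrg1-/- mice, and it fell by 0.80 on the log2 scale (edgeR adjusted p = 0.00585). Rps27l in the same cells had 156 and 72.8 CPM against 184, 240.3 and 168 CPM, with no overlap though the WT pair lay far apart, and it rose (log2 fold change 0.79, edgeR adjusted p = 0.0429). Rps27rt, whose reads cannot be cleanly separated from those of Rps27, fell alongside it in microglial cells (log2 fold change -0.84, adjusted p = 0.0299). The gap for Rps27l was narrow at MCAO/R + WT replicate 1, with 156 CPM beside 168 CPM in the lowest Lrg1-/- mouse. The 15 members called in this microglial comparison became 6 and 8 without MCAO/R + Lrg1-/- replicates 2 and 5. Other settings gave both lower and higher counts, which are given with the microglial results.

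In other resident cells the number of members that rose in Lrg1-/- mice varied by type. After sham surgery, 81 of 83 members rose in choroid plexus epithelial cells (background 11.1%), 57 in pericytes (3.07%), 53 in ependymal cells (2.17%), 50 in oligodendrocytes (6.88%), 29 in vascular smooth muscle cells (8.9%), 47 in astrocytes (2.22%) and 6 in macrophages (0.675%), with no member lower in any of them (backgrounds 0.491 to 11.5% lower). In T cells 14 of 83 rose, against a background of 10.9%, with a median log2 fold change of 0.24. In neurons and neuroblasts none rose and 1 fell (background 1.01% lower). DESeq2 called 60 in vascular smooth muscle cells, 78 in astrocytes, 12 in macrophages and 5 in neurons and neuroblasts. In monocytes and monocyte-derived macrophages 0 of 84 were called by edgeR (background 0.373% higher). There 25 had an unadjusted p below 0.05, all higher in Lrg1-/- mice, and DESeq2 called 12, with no background given for either. Over all types tested after sham surgery there were 473 calls in either direction, with 60 falls in microglial cells among them. Without sham + WT replicates 1, 2 or 3 or sham + Lrg1-/- replicate 5 these 473 became 274, 222, 224 and 267.

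After MCAO/R the members that rose numbered 80 in choroid plexus epithelial cells (background 13.4%), 78 in pericytes (8.04%), 78 in oligodendrocytes (13.9%), 68 in ependymal cells (4.98%) and 57 in macrophages (10.6%). Smaller numbers rose in vascular smooth muscle cells (8, background 2.59%), astrocytes (4, background 0.924%) and neurons and neuroblasts (2 of 83, below the background of 4.77%). In these 3 types DESeq2 called 24, 19 and 13. No member fell in the 8 types named here (backgrounds 0.941 to 13.8% lower). In neutrophils edgeR called 0 of 81 (background 0.151% higher), with 19 at an unadjusted p below 0.05 and 0 by DESeq2. Rps15 was called in 10 of 11 types after MCAO/R, and Rpl12, Rpl13a, Rpl23a and Rpl5 in 9 of 11. Rpl7l1 was called higher in 0 of these types. Over all types, endothelial and microglial cells among them, there were 453 calls in either direction. The 453 calls over all types after MCAO/R became 162 without MCAO/R + WT replicate 2.

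Microglial cells, the resident macrophages of the brain, differed from this pattern. Their ribosomal protein share was 5.61, 5.12 and 5.27% in the sham + WT mice and 4.16, 3.71 and 4.50% in the sham + Lrg1-/- mice, so that all Lrg1-/- values were lower. After MCAO/R it was 6.77 and 7.02% in the WT mice and 7.44, 7.64 and 7.57% in the Lrg1-/- mice, so that all Lrg1-/- values were higher. Each difference had p = 0.1 by the exact permutation test within 1 operation, which is the smallest that test can give, so neither passed.

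Among single genes, 60 of the 84 tested fell in microglial cells of sham + Lrg1-/- mice, 37 of 50 of the large and 23 of 34 of the small subunit, and none rose. The background was 12.2% of all genes called lower and 10.6% called higher, and the median log2 fold change of the family was -0.56, against -0.02 for all genes. Rps4x, the X-linked form of Rps4, had 1192, 1090 and 1040 CPM in the sham + WT mice and 629, 505 and 617 CPM in the sham + Lrg1-/- mice, and fell by 0.92 on the log2 scale (edgeR adjusted p = 0.00154). Rpl29 had 439, 432 and 408 CPM against 223, 200.2 and 272 CPM (log2 fold change -0.88, adjusted p = 0.00116). Rplp0 had 900, 791 and 739 CPM against 486, 397 and 499 CPM (log2 fold change -0.81, adjusted p = 0.00207). None of these groups overlapped. Rps26, at the exit of the mRNA channel, fell by 0.79 (adjusted p = 0.00175). The other called falls ran down to 0.40 (Rpl26), and Rpl5, Rps15, Rpl23a and Rps27l were among the 24 not called, with log2 fold changes between -0.02 (Rps27l) and 0.12 (Rpl5). With cells above 1% haemoglobin left out, 61 fell.

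These sham counts rest on which cells are called microglial. An unnamed cluster of 5294 cells had 7 microglial markers, none of them among its 10 leading genes, which included the microglial activation genes Spp1, Lpl and Cst7, and the next best score was that of oligodendrocytes. It held 106 sham + WT, 1195 sham + Lrg1-/-, 288 MCAO/R + WT and 3705 MCAO/R + Lrg1-/- cells. Its ribosomal protein share was high, between 10.1 and 20.5% in the 11 libraries. Its cells held few UMIs, with a median of 0.498 times the median count of their library. The median counts were 1460, 1729 and 2363 UMIs in the sham + WT and 1276, 1279 and 1485 in the sham + Lrg1-/- libraries. With this cluster added to the microglial cells, which was chosen after seeing the data, 2 members fell after sham surgery instead of 60, and the genotype difference in share, averaged over the operations, became 1.36 points instead of -0.275. The groups were also spread unequally over the microglial clusters. Of the sham + WT cells 7717 and 3361 were in a cluster led by Ifih1 and Ptpro and in one led by Ptchd1 and Ifnb1, which held 173 and 489 of the 2066 sham + Lrg1-/- cells. A cluster led by Lysmd4 held 851 sham + Lrg1-/- and 100 sham + WT cells, whereas 5714 of the MCAO/R + WT cells in one led by Tmem154, and 4370 and 3186 of the MCAO/R + Lrg1-/- cells in clusters led by Hao1 and by Lilr4b. Within the 5 clusters that could be compared after sham surgery, all Lrg1-/- mice were below all WT mice in 3, by 2.81, 1.96 and 0.718 points, and the groups overlapped in the other two. After MCAO/R the genotypes overlapped in all 3 clusters that could be compared (differences of 1.08, 0.0433 and -0.589 points). The median count per microglial cell moved with the groups too, with means of 9589 UMIs in the sham + WT, 5483 in the sham + Lrg1-/-, 10784 in the MCAO/R + WT and 11182 in the MCAO/R + Lrg1-/- mice.

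After MCAO/R, 10 members rose and 5 fell in microglial cells of Lrg1-/- mice, against backgrounds of 10.5% higher and 10.4% lower, so the family as a whole stood near the background. Among those that rose were Rps15, Rps27l, Rpl31, Rpl5, Rpl12, Rpl23a, Rps6, Rpl13a and Rpl10a, and those that fell were Rps27, Rps27rt, Rps29, Rpl35a and Rpl22l1. Rps15 had 391 and 376 CPM in the MCAO/R + WT mice and 564, 629 and 736 CPM in the MCAO/R + Lrg1-/- mice (log2 fold change 0.75, edgeR adjusted p = 0.0057), with no overlap. Rps29, a zinc-binding protein of the small subunit, had 1431 and 1692 CPM against 1179, 958 and 982 CPM, and fell by 0.59 (edgeR adjusted p = 0.0376). Rpl22l1 fell by 0.44 (adjusted p = 0.0452), from 288 and 346 CPM to 220.0, 249 and 229 CPM. The count of 15 was 2 without MCAO/R + WT replicate 2, 6 and 8 without MCAO/R + Lrg1-/- replicates 2 and 5, 9 without sham + WT replicate 2, and 30 with the unnamed cluster added.

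Taken over all microglial clusters, the family stood higher after MCAO/R than after sham surgery in both genotypes. The share rose by 2.49 points from sham to MCAO/R, averaged over the genotypes, by 1.56 in WT and 3.43 in Lrg1-/- mice (exact two-sided permutation test within genotypes, p = 0.005, adjusted p = 0.025 over 10 types). In WT mice 30 of 84 members rose and none fell (backgrounds 11.9% higher and 9.81% lower, median log2 fold change 0.37). In Lrg1-/- mice 78 of 84 rose and none fell (backgrounds 21.0% higher and 15% lower, median 0.98). Sham and MCAO/R cells lay in largely separate clusters, however. Of the microglial cells, 11224 sham + WT and 303 MCAO/R + WT cells were in 1 cluster group, and 1107 and 8017 in the other, and for the Lrg1-/- mice the numbers were 1527 and 114, and 539 and 7904. Within the 5 clusters that could be compared in WT mice the share was higher in all MCAO/R than in all sham mice in 0, lower in 1 and overlapping in 4 (differences of -0.990 to 0.836 points). In Lrg1-/- mice it was higher in 1 of 2 clusters, by 2.05 points, and overlapped in the other. A change within microglial cells of 1 kind and a change in which kinds were present cannot be told apart from the sums per type. The WT count was 6 without MCAO/R + WT replicate 1, 15 and 18 without sham + WT replicates 2 and 3, and 17 with the unnamed cluster added. The Lrg1-/- count was between 73 and 79 with any 1 library left out.

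Rps2 had the largest called rise in microglial cells of Lrg1-/- mice, from 516, 429 and 520.4 CPM after sham surgery to 1496, 1890 and 1541 CPM after MCAO/R (log2 fold change 1.75, edgeR adjusted p = 2.17e-05). In WT mice it went from 825, 731 and 683 CPM to 1641 and 1141 CPM (log2 fold change 0.90, adjusted p = 0.00238). Neither pair of groups overlapped. Rpl14, of the large subunit, had 250.4, 210.1 and 255 CPM in the sham + Lrg1-/- and 665, 878 and 821 CPM in the MCAO/R + Lrg1-/- mice (log2 fold change 1.73, adjusted p = 1.4e-05), and rose by 0.95 in WT mice (adjusted p = 0.000697). Rpl12 rose from 381, 296 and 360.4 CPM to 946, 1294 and 1167 CPM in Lrg1-/- mice (log2 fold change 1.72, adjusted p = 1.4e-05). Rpsa rose in both genotypes, from 648, 608 and 575 to 1300 and 1004 CPM in WT mice (log2 fold change 0.92, adjusted p = 0.00103) and from 473, 398 and 470 to 1204, 1550 and 1535 CPM in Lrg1-/- mice (1.68, adjusted p = 1.61e-05). Rps27 was not called in Lrg1-/- microglial cells (log2 fold change -0.23, edgeR adjusted p = 0.276), whereas Rps27l rose by 1.69 (adjusted p = 0.000163).

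Whether the change with the operation differed between genotypes was tested as the interaction term of the same fit. In microglial cells the rise was larger in Lrg1-/- than in WT mice for 31 of 84 members, 16 of the large and 15 of the small subunit, and for none was it smaller, with backgrounds of 5.58% higher and 3.56% lower and a median difference of 0.61 on the log2 scale. Rpl29 had a difference of 1.09 (edgeR adjusted p = 0.0138), Rpl12 of 1.09 (adjusted p = 0.0117) and Rplp0 of 0.87 (adjusted p = 0.0319). For Rpl29 and Rplp0 the sham + Lrg1-/- mice were the lowest group, and the MCAO/R mice of both genotypes overlapped. The count was 5 without sham + WT replicate 1, sham + WT replicate 2, sham + Lrg1-/- replicate 2 or MCAO/R + WT replicate 2, 6 without sham + WT replicate 3, 7 without sham + Lrg1-/- replicate 1, 8 and 19 without MCAO/R + Lrg1-/- replicates 2 and 5, and 9 with the unnamed cluster added. In endothelial cells edgeR called 0 of 85 interactions (backgrounds 0.0413% higher and 0.206% lower), with 3 at an unadjusted p below 0.05 and 0 by DESeq2. In the 8 other types edgeR also called 0, with 25 members at an unadjusted p below 0.05 in macrophages, 32 in oligodendrocytes and 0 to 17 elsewhere, while DESeq2 called 7 in macrophages, 4 in oligodendrocytes, 1 in pericytes, 1 in neurons and 0 in the rest.

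In endothelial cells, summed over all clusters, few members followed the operation. Here too the operations lay in largely separate clusters, with 5937 sham + WT and 121 MCAO/R + WT cells in 1 cluster group and 401 and 4464 in another. Within clusters the WT share was higher after MCAO/R in 2 of 5, lower in 1 and overlapping in 2, and the Lrg1-/- share was higher in 1 of 8 and overlapping in 7. The share rose by 0.603 points from sham to MCAO/R, averaged over the genotypes, and did not pass (exact permutation test, p = 0.23). In WT mice 1 of 85 members rose, Rps6, from 392, 451 and 456 CPM to 861 and 684 CPM (log2 fold change 0.84, edgeR adjusted p = 0.011, backgrounds 4.52% higher and 4.45% lower). With the replicate number as a block, which is no true pairing here, 0 were called. Rps6 is the small-subunit protein that the S6 kinases phosphorylate. In Lrg1-/- mice 5 rose and 2 fell, near the backgrounds of 5.74% and 3.96%. These 7 calls were 1 without sham + Lrg1-/- replicate 2, 2 without MCAO/R + Lrg1-/- replicate 2, 11 and 12 without replicate 5 of either group, and 21 with cells above 1% haemoglobin left out. Without sham + Lrg1-/- replicate 1 there were 3 and without MCAO/R + Lrg1-/- replicate 1 there were 13, and in both cases more fell than rose. Rps2 rose (log2 fold change 1.19, adjusted p = 0.0165), as did Rpl12 (0.98, adjusted p = 0.0054), Rpsa (0.88, adjusted p = 0.0209), Rplp0 (0.79, adjusted p = 0.032) and the binding protein gene Rps19bp1 (0.66, adjusted p = 0.0266), while Rps27 fell by 0.76 (adjusted p = 0.0408) and Rps27rt by 1.09 (adjusted p = 0.0267).

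Elsewhere the operation raised the share in macrophages by 1.73 points (exact permutation test, p = 0.005, adjusted p = 0.025), in ependymal cells by 1.38 points and in oligodendrocytes by 0.949 points (both p = 0.015, adjusted p = 0.0375). Within clusters all MCAO/R mice were above all sham mice in 1 of 1 for WT and 1 of 2 for Lrg1-/- macrophages, 2 of 2 and 1 of 2 for ependymal cells, and 1 of 5 and 3 of 5 for oligodendrocytes. Without haemoglobin and mitochondrial genes in the totals ependymal cells and oligodendrocytes had adjusted p of 0.0625 and 0.05. In Lrg1-/- mice 47 members rose and 1 fell in macrophages (backgrounds 7.6% and 6.42%), 46 rose in oligodendrocytes (6.11%) and 12 in ependymal cells (2.5%). In pericytes 4 of 83 rose (background 0.434%), in red blood cells 4 of 81 (2.48%) and in neurons and neuroblasts 1 of 83 (0.394%). The 4 of 84 that rose in monocytes and monocyte-derived macrophages were near the background of 5.5%. DESeq2 called 29 in ependymal cells, 22 in pericytes and 15 in neurons and neuroblasts. In T cells, astrocytes, choroid plexus epithelial cells and vascular smooth muscle cells of Lrg1-/- mice edgeR called 0 of 83. DESeq2 called 0, 0, 0 and 1 there. At an unadjusted p below 0.05 these 4 types had 6, 2, 5 and 3 members, of which 6, 1, 4 and 2 were lower after MCAO/R. In WT mice 2 of 83 rose in macrophages (background 4.56%, 5 by DESeq2) and 1 of 83 in oligodendrocytes (11.1%), both below the background. In the 7 other types tested in WT mice edgeR and DESeq2 both called 0, with 17 members at an unadjusted p below 0.05 in choroid plexus epithelial cells, all lower after MCAO/R, and 0 to 7 elsewhere. Rpl12 was called in 9 of 13 types for the operation in Lrg1-/- mice, Rps2 in 8, Rpsa in 7 and Rplp0 in 6. The 204 calls of this comparison over all types became 132 without sham + Lrg1-/- replicate 2, and the 34 calls in WT mice became 6 without MCAO/R + WT replicate 1 and 16 and 19 without sham + WT replicates 2 and 3.

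Genes of the same pathway were followed from fixed lists, each read against the background of its comparison, which in endothelial cells after MCAO/R was 15.4% higher and 12.4% lower. In endothelial cells of Lrg1-/- mice after MCAO/R, 53 of 78 mitochondrial ribosomal protein genes rose and none fell (median log2 fold change 0.62). Of 17 translation factors and other genes with a TOP motif 9 rose, including the elongation factor subunits Eef1g (0.90) and Eef1b2 (0.76), and none fell. Rack1, a scaffold protein bound to the small subunit, rose by 1.27. Of 30 ribosome assembly genes 5 rose, a share near the background, among them Nhp2 (1.46), Fbl (1.09) and Nop10 (1.06), and 1 fell, Sbds, which readies the large subunit (-0.68). Of 10 S6 kinase genes 0 were called higher and 3 lower, Rps6ka3 (-0.78), Rps6kb1 (-0.72) and Rps6ka2 (-0.62). Of 8 genes of mTOR signalling 1 rose, again near the background, Eif4ebp1 (0.59), and 2 fell, Tsc1 (-0.55) and Mtor (-0.46). Of 8 p53 targets 2 rose, Phlda3 (1.75) and Bax (0.68), and 3 fell, Trp53inp1 (-2.47), Cdkn1a (-0.84) and Mdm2 (-0.68).

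In sums over all microglial cells of Lrg1-/- mice, 29 of 30 ribosome assembly genes were higher after MCAO/R than after sham surgery (median log2 fold change 1.25). Rrs1, needed for large-subunit assembly, stood at 3.33 and Nhp2 at 2.38. So were 75 of 78 mitochondrial ribosomal protein genes (median 1.2) and 17 of 17 genes of the TOP list (median 1.02), against a background of 21.0% higher. In WT mice, against 11.9%, 23 assembly genes (median 0.82, Rrs1 at 2.22), 20 mitochondrial ribosomal protein genes and 6 genes of the TOP list were higher after MCAO/R. Sham and MCAO/R cells lay in largely separate clusters, and the lists were not read within clusters. A change within cells of 1 kind and a change in which kinds were present cannot be told apart here. After sham surgery the Lrg1-/- microglial cells had 10 genes of the TOP list, 18 mitochondrial ribosomal protein genes and 5 of 30 assembly genes lower than WT, the last near the background of 12.2%, and none higher, with Nop58, a protein of the nucleolar particles that modify ribosomal RNA, at -1.91. The fusion gene Fau, which encodes a ribosomal protein joined to a ubiquitin-like protein, fell by 0.71 in that comparison. Adding the unnamed cluster to the microglial cells took its ribosomal protein calls from 60 to 2, and these lists were not repeated with that cluster. In sums over all endothelial cells of Lrg1-/- mice, 18 assembly genes were higher after MCAO/R than after sham surgery (median 0.75, background 5.74%) and 1 was lower. In WT mice edgeR called 0 of 30 with a median of 0.38, and the difference between the genotypes was not tested for this list. The limit on separate clusters holds for endothelial cells too.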

How the data were processed

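The deposited matrices hold UMI counts per gene and cell as the authors' alignment produced them, and their headers name Cell Ranger 7.0.1, with STAR and the mm10 build in the submitters' processing notes. Total counts were 37159497 to 171813031 UMIs per library, and the number of mice, 2 or 3 per group, limits the precision. Nothing states that the mice of a group were handled on separate days, so p-values measure the spread between these libraries.

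Cells were kept with more than 500 genes, more than 1000 UMIs and under 25% mitochondrial UMIs, and doublets were marked by simulated doublets at an expected rate of 6%, by an automatic threshold or, in 6 libraries where that threshold marked under 0.5% of the cells, by the top 6%. These 6 were sham + WT replicate 1, sham + Lrg1-/- replicates 1, 2 and 5 and MCAO/R + Lrg1-/- replicates 1 and 5. The doublet rule thus went largely with genotype. Cells were clustered on 2000 variable genes and 15 principal components with a neighbour graph balanced over mice (Leiden resolution 1.0). Each cluster was then split on 1000 variable genes chosen within it (resolution 0.5). Ribosomal protein, mitochondrial and haemoglobin genes were left out of both steps. A cluster was named where at least 3 markers of a type stood at 2 times the median cluster, with a mean log2 score of 1.5 and a margin of 1.0 over the next type. UMIs were summed per mouse and type with at least 20 cells and tested with edgeR 4.0.16 (TMM, filterByExpr, quasi-likelihood, R 4.3.3) in 1 fit of all 4 groups, with DESeq2 1.42.0 as an alternative. CPM values are on the TMM scale, except those of Lrg1, which are scaled by the plain total. Shares were compared by exact permutation of mice within operation or genotype (smallest p 0.005), adjusted over 10 types. Python 3.11.15, scipy 1.17.1 and leidenalg 0.10.2 were used, and the fits were tested on simulated counts.

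The genes named are those of a list of roles, the 4 with the largest called change in each direction and comparison in microglial and endothelial cells, and the 5 whose proportion varied most between types. The members and the lists of related genes were chosen with earlier results of these data known. Rps4l has no row in the tables, and some genes that the rule names are not reported here. Same-numbered mice of different groups showed no steady tendency to deviate together: correlations of their deviations ran from -0.40 to 0.05 in microglial and from -0.32 to 0.38 in endothelial cells, so the numbers were not taken as pairs. Exact numbers of barcodes in 4 of the Lrg1-/- libraries (15500, 9000, 5650 and 8500) look like preset cell numbers.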

Additional observations from a re-analysis of the deposited data

Results flagged for a closer look

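In microglial cells the change with MCAO/R differed between the genotypes for 31 ribosomal protein genes by the interaction term of the edgeR fit, larger in Lrg1-/- than in WT mice each time. Among the genes named, the differences on the log2 scale were 1.09 for Rpl12 and for Rpl29, 0.87 for Rplp0 and 0.85 for Rps2. In large-subunit genes they were 0.80 for Rpl31, 0.79 for Rpl3, 0.77 for Rpl14, 0.73 for Rpl36al, 0.71 for Rpl22 and 0.67 for Rpl11. In small-subunit genes they were 0.79 for Rps19, 0.76 for Rpsa, 0.73 for Rps15 and 0.64 for Rps3. The count fell to between 5 and 19 when any of 8 libraries was left out and to 9 with the unnamed microglia-like cluster added, and the share of UMIs from haemoglobin, the counts per cell and the clusters occupied differed between the same groups.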

How the results depend on the processing

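The counts in this section are given without the share of all genes called in the same fit. Whether they moved with the calls over all genes was not tested. Leaving out 1 library at a time gave these ranges of called members. For Lrg1-/- minus WT after sham surgery, 222 to 527 over all types, 33 to 80 in endothelial and 45 to 64 in microglial cells, and after MCAO/R, 162 to 490, 11 to 73 and 2 to 17. For MCAO/R minus sham in WT mice, 6 to 45, 0 to 4 and 6 to 38, and in Lrg1-/- mice, 132 to 243, 1 to 13 and 73 to 79. In this last comparison in endothelial cells, lower calls outnumbered higher ones without sham + Lrg1-/- replicate 1 (3 called) and without MCAO/R + Lrg1-/- replicate 1 (13 called). The endothelial count in WT mice was 4 without sham + Lrg1-/- replicate 5, 3, 2 and 3 without MCAO/R + Lrg1-/- replicates 1, 2 and 5, and 0 without MCAO/R + WT replicate 1. Interactions were 0 to 0 in endothelial and 5 to 46 in microglial cells. The genotype difference in share was 3.79 to 4.53 points in endothelial and -0.369 to -0.172 in microglial cells, and that of the operation 0.232 to 0.964 and 2.39 to 2.59.

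With the unnamed cluster added to microglial cells, 2 members were called for Lrg1-/- minus WT after sham surgery, 30 after MCAO/R, 17 for MCAO/R minus sham in WT mice and 9 interactions, the genotype difference in share turned to 1.36 points, and Rps28 after sham surgery turned to 0.0349. In endothelial cells MCAO/R minus sham in WT mice gave 2 calls with DESeq2 size factors, 3 with library totals, 2 without haemoglobin and mitochondrial genes, 4 with DESeq2 and 5 without cells above 1% haemoglobin, against 1. In Lrg1-/- mice it gave 11 with library totals, 13 with DESeq2 and 21 without cells above 1% haemoglobin, against 7. DESeq2 called 48 interactions in microglial cells. The causes were not tested.

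With the replicate number as a block, which is no true pairing here, Lrg1-/- minus WT after sham surgery gave 176 calls over all types and 11 in endothelial cells, and after MCAO/R 35 in endothelial and 5 in microglial cells. MCAO/R minus sham gave 9 over all types, 0 in endothelial and 9 in microglial cells of WT mice, and 3 in endothelial cells of Lrg1-/- mice, and 1 interaction remained in number in microglial cells.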

Other observations

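In the unnamed cluster with microglial markers the ribosomal protein share was 10.1, 16.2 and 20.5% in the sham + WT, 15.6, 14.3 and 15.8% in the sham + Lrg1-/-, 15.98 and 19.8% in the MCAO/R + WT and 18.01, 15.2 and 13.8% in the MCAO/R + Lrg1-/- libraries, so the genotypes overlapped after both operations. Another unnamed cluster of 11088 cells, led by genes such as Arg1 and Chil3 and scoring close to both monocytes and neutrophils, had a median share of 9.96%, and 10038 of its cells came from MCAO/R + Lrg1-/- replicate 5.

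Mitochondrial ribosomal protein genes, which encode the separate ribosome of the mitochondrion, were called higher in microglial cells of Lrg1-/- mice after MCAO/R for 29 of 78 (median log2 fold change 0.47) and lower for none, against backgrounds of 10.5% higher and 10.4% lower, whereas 10 cytosolic members rose and 5 fell in the same comparison.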
